A study of Mus musculus with 4 samples.

Results

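The genes described here are the replication-dependent histone genes of the mouse, in poly(A) RNA sequencing of cultured spermatogonial stem cells (SSCs). They were chosen by name: all genes whose symbol in the deposited FPKM table begins with Hist1h, Hist2h, Hist3h or Hist4h. This gave 67 of the 37653 genes of that table, and each was joined by its gene identifier to the count table of 55335 genes. The members code for linker histone H1 (6 genes) and for the core histones H2A (18), H2B (18), H3 (12) and H4 (13). Of the 67 members, 64 are annotated as protein coding and 3 (Hist3h2bb-ps, Hist1h2aj and Hist1h2al) as pseudogenes in GENCODE M21. In mm10, 53 lie within chr13:21715763-23934851 and Hist1h2al lies apart on the same chromosome; 9 Hist2 members are on chromosome 3, 3 Hist3 members on chromosome 11 and 1 Hist4 member on chromosome 6.

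The libraries came from SSCs of C57/BL6*DBA2 mice of postnatal day 10, grown and passaged in culture and collected on a cell sorter. Wild-type (WT) cells gave 2 libraries, and cells labelled Tex11PM/Y gave 2. Tex11 is an X-linked gene needed for meiotic crossovers, and the labels do not say what PM stands for. The labels do not describe the sort gate or say whether the pair of libraries of a genotype stems from different animals or cultures, so p-values measure only the spread between these samples, which may be technical. The Tex11PM/Y columns share 1 header name in the deposited tables and are called library A and library B. Where 4 values follow each other without further labels, they are in library order: WT replicate 1, WT replicate 2, library A, library B.

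Replication-dependent histone genes supply the histones that package newly made DNA, and their mRNAs accumulate in S phase and are degraded when replication stops. Core histones H2A, H2B, H3 and H4 form the nucleosome, and H1 binds the linker DNA at its side. Unlike other mRNAs, those of these genes normally end in a conserved stem-loop rather than a poly(A) tail: the stem-loop is bound by the protein SLBP, and the RNA is cut just after it with the help of U7 snRNP. Some of the genes can also be read through to a downstream poly(A) signal, and such tailed forms are known from differentiating and non-dividing cells. Selection on poly(T), as used here, retains tailed RNA, so the values below do not measure the stem-loop form as such.

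The stem-loop is printed first because it bears on which RNA of these genes a poly(A) library can hold. It was searched for in the GENCODE M21 transcripts after the stop codon. The form sought was 16 bases with a fully paired stem beginning GG and a loop beginning TTT. It was found in the models of 42 of the 67 members, from 21 to 58 bases after the stop codon. A stem-loop of another form would have been missed. There were 6 distinct 16-base elements, and 24 members share that of Hist1h1c. H4 genes had forms of their own: 7 share that of Hist1h4c, 2 that of Hist1h4i and 2 that of Hist1h4j. The form of Hist1h3c is in 6 members and that of Hist2h2ac in 1. Each stretch has 30 bases, 5′ to 3′ on the gene's strand, with the stem-loop in capitals; they lie at chr13:23739505-23739534 (Hist1h1c, plus strand), chr13:22040959-22040988 (Hist1h4i, minus), chr13:23698082-23698111 (Hist1h4c, minus), chr13:23745040-23745069 (Hist1h3c, minus), chr13:21735430-21735459 (Hist1h4j, plus) and chr3:96220411-96220440 (Hist2h2ac, minus) in mm10.
Hist1h1c: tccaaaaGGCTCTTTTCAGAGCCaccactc
Hist1h4i: acttaaaGGCCCTTTTTAGGGCCaccacaa
Hist1h4c: aacaaaaGGCCCTTTTCAGGGCCacccaca
Hist1h3c: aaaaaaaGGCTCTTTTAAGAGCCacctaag
Hist1h4j: ccctaaaGGTCCTTTTCAGGACCaccacat
Hist2h2ac: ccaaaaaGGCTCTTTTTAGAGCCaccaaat

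Several models run on past the stem-loop to a second end. The model of Hist1h1c continues for 840 bases past its stem-loop, that of Hist1h4i for 330 and that of Hist3h2ba for 169. In 16 members the last 40 bases of a model hold AATAAA or ATTAAA, the poly(A) signal. The last 30 bases of 3 such models follow, because these are the ends a poly(A) library can capture; the signal is in capitals. They lie at chr13:23740338-23740367 (Hist1h1c), chr13:22040636-22040665 (Hist1h4i) and chr11:58949504-58949533 (Hist3h2ba).
Hist1h1c: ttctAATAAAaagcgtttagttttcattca
Hist1h4i: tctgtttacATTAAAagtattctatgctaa
Hist3h2ba: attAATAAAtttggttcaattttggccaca

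Library totals were 19047148, 19396809, 19306140 and 19804951 counts in library order. A count of 0 then allows up to 3 counts, or 0.149 to 0.169 CPM, where CPM is counts scaled to the normalised library size. Tex11 itself had 1182, 2491, 450 and 187 counts (edgeR adjusted p = 0.884). Of 12 genes listed for undifferentiated spermatogonia all were tested, with summed levels of 2562, 2822, 3754 and 2849 CPM in library order. The sum includes Ddx4 (214, 357, 531 and 298 CPM) and Dazl (552, 876, 1194 and 810 CPM), germ-cell genes not limited to that stage. Genes of the fibroblast list (20 of 20 above 0 in every library) summed to 18276, 5234, 671 and 6581 CPM in library order. Macrophage genes (12 of 12 above 0 in every library) summed to 697, 556, 26.5 and 1325 CPM. Library A was therefore lowest in both, and in bulk RNA fewer cells of a type cannot be told apart from less RNA per cell.

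Histone genes took a small share of each library. Summed over the 67 members, counts were 3007 and 3122 for the WT pair, 1089 for library A and 3781 for library B. As a share of all counts this was 0.0158% (95% Wilson interval 0.0152 to 0.0164), 0.0161% (0.0155 to 0.0167), 0.00564% (0.00532 to 0.00599) and 0.0191% (0.0185 to 0.0197); intervals and count limits cover counting error only. The 2 WT libraries overlapped within those intervals, while the Tex11PM/Y libraries lay on either side of them, one below and one above. Of the 10999 member counts in all, which are not scaled by length, H1 genes held 45.2%, H2B 23.4%, H4 18.6%, H2A 6.93% and H3 5.78%. In the authors' FPKM values, which are per length, 30 members had a mean above 1 and 4 a mean above 5: Hist1h1c (30.5), Hist1h2bc (15.3), Hist1h4i (14.5) and Hist1h2al (10.7). The SDs over the 4 libraries were 18.9, 5.98, 9.03 and 7.17 FPKM in that order. Hist1h2bc was above Hist1h2al in every library (16.3 and 15.9, 18.3 and 12.7, 6.65 and 0.113, 20.04 and 14.1 FPKM). Hist1h4i had 8.16, 17.0, 6.64 and 26.2 FPKM in library order, above Hist1h2bc in library B alone and below Hist1h2al in WT replicate 1 alone, so its place in the order changed between libraries.

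**Figure D1:**
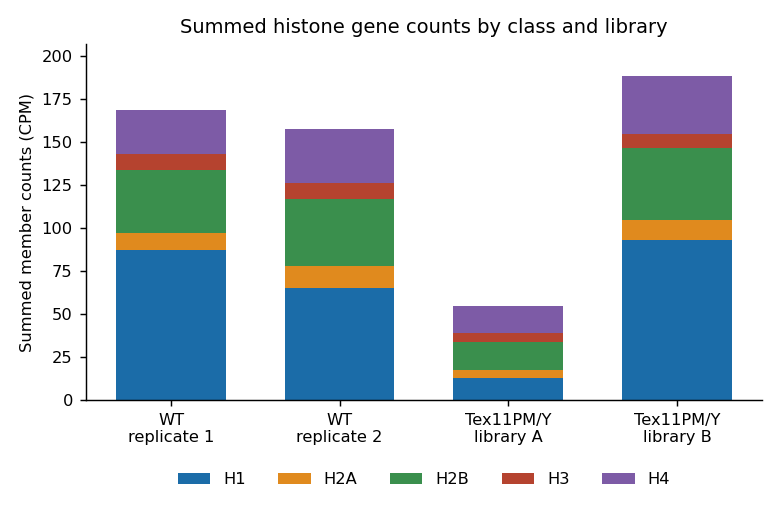
Summed counts of the members of each histone class in each library, in CPM, counts scaled to the normalised library size. Bars are single libraries with no error; the total was 169 and 158 CPM in the WT pair, 54.8 CPM in Tex11PM/Y library A and 188 CPM in library B, and the H1 part differed most between libraries, 7.25-fold from lowest to highest.

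The H1 class was dominated by Hist1h1c, a widely expressed linker histone gene. Hist1h1c had 1412 and 1126 counts in WT, 162 in library A and 1759 in library B. Library B was the highest of the 4 and library A the lowest, so the genotypes overlapped. Hist1h1c made up 90.7% and 87.5% of H1 counts in WT, 63.3% (95% Wilson interval 57.2 to 68.9) in library A and 93.8% (92.6 to 94.8) in library B. Its group means were 68.1 ± 15.8 CPM for WT and 47.9 ± 56.2 CPM for Tex11PM/Y (SD, n = 2 a genotype), with a log2 fold change of -0.51 and a standard error of 1.02 (edgeR adjusted p = 0.943).

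The other H1 genes followed other patterns. Hist1h1a, a linker histone gene known from thymus, testis and spleen, had 4.55, 4.10, 2.17 and 2.59 CPM in library order. Both Tex11PM/Y libraries were below both WT libraries (log2 fold change -0.86 with a standard error of 0.62, edgeR adjusted p = 0.884). Hist1h1b, another linker histone gene, had 12 and 16 counts in the WT pair and 4 and 3 in libraries A and B. It had the largest fitted difference of any tested member, a log2 fold change of -2.04 with a standard error of 0.80, and an unadjusted edgeR p of 0.0373 that did not pass adjustment over all genes (adjusted p = 0.884). Hist1h1d had 1.46, 1.77, 0.705 and 1.59 CPM in library order, and Hist1h1e was between 1.07 and 1.42 CPM in all 4. In the authors' FPKM table Hist1h1e is listed at 0 in WT replicate 1, where it had 19 counts, and at 0.607 to 0.726 in the others. Hist1h1t, the linker histone of spermatocytes, had 7, 1, 5 and 4 counts in the same order and did not pass the filter on low counts.

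H2A genes had few counts each. The highest was Hist1h2al, annotated as a processed pseudogene, with 80 and 79 counts in WT, 0 in library A and 101 in library B. The other 3 libraries had a mean of 4.51 CPM, and against the limit of 3 counts the level in library A was at least 29.8-fold lower than their mean. The authors' FPKM for Hist1h2al was 15.9, 12.7, 0.113 and 14.1 in library order. Of the 50-base windows of Hist1h2al, 67.6% also occur in another annotated transcript, so its reads may be shared with other H2A copies. The genotypes overlapped (log2 fold change -0.75 with a standard error of 1.63, edgeR adjusted p = 0.947).

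Hist3h2a, the single H2A gene of the Hist3 cluster, had 0.674, 2.38, 0.755 and 1.99 CPM in library order, so the spread within each genotype was wider than the difference between their means (1.53 ± 1.20 for WT and 1.37 ± 0.88 CPM for Tex11PM/Y, SD, n = 2). Hist1h2ac ranged only from 1.18 to 1.82 CPM. At the ends of the class, Hist1h2ab had 0.618, 1.06, 0.403 and 0.149 CPM in library order (log2 fold change -1.59, standard error 0.85), and Hist1h2ae had 0.337, 0.708, 0.755 and 1.15 CPM in library order (log2 fold change 0.85, standard error 0.77); both had an edgeR adjusted p of 0.884. Hist1h2ae was the only tested member with both Tex11PM/Y libraries above both WT libraries (16.1% of all tested genes). Hist1h2aa, the testis H2A gene, had 10, 9, 8 and 8 counts and was not tested, and 12 of the 18 H2A members in all did not pass the filter.

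Among H2B genes, Hist1h2bc held 64.8% of the counts. Hist1h2bc had 446 and 499 counts in WT, 181 in library A and 543 in library B, or 25.1, 25.2, 9.12 and 27.1 CPM. The WT libraries were nearly equal, library A lay lowest and library B highest (log2 fold change -0.48 with a standard error of 0.56, edgeR adjusted p = 0.895). Hist1h2bg was also lowest in library A but highest in WT replicate 1. It had 2.47 and 1.77 CPM in the WT pair, 0.302 CPM in library A and 1.84 CPM in library B (log2 fold change -0.98, standard error 0.91).

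Hist3h2ba of the Hist3 cluster was not lowest in library A. It had 12 and 58 counts in the WT pair and 33 and 113 in libraries A and B, so WT replicate 1 was its lowest library. Its log2 fold change of 1.01, with a standard error of 0.94, was the largest on the higher side (edgeR adjusted p = 0.884). Hist2h2be stayed between 0.449 and 0.847 CPM. Hist1h2ba, the testis H2B gene that germ cells carry before meiosis, had 0.899, 0.961, 1.31 and 0.648 CPM in library order, with library A the highest of the 4 (log2 fold change 0.07 with a standard error of 0.72, edgeR adjusted p = 0.990).

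H3 genes had few counts each. Hist1h3a had 2.19, 2.07, 0.655 and 0.847 CPM in library order, so both Tex11PM/Y libraries were below both WT libraries (log2 fold change -1.50 with a standard error of 0.67, edgeR adjusted p = 0.884). Hist1h3c, at 1.24, 1.67, 1.46 and 1.30 CPM in library order, showed no such gap. Hist1h3e had 2.14 CPM in WT replicate 1 and 0.755 to 0.997 CPM in the others, so its WT mean of 1.52 ± 0.87 CPM rested on 1 library. The members Hist2h3c1 and Hist2h3b had 0 counts in all 4 libraries.

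H4 genes code for one and the same core protein from many copies, and here 1 copy led. Hist1h4i had 141 and 293 counts in WT, 115 in library A and 444 in library B, or 48.4% of all H4 counts. Its share of H4 counts was 31.2% and 47.3% in WT, 37.1% in library A and 66.4% (95% Wilson interval 62.7 to 69.8) in library B, so the make-up of the class differed between libraries of 1 genotype beyond counting error. Group means were 11.4 ± 4.88 CPM for WT and 14.0 ± 11.5 CPM for Tex11PM/Y (SD, n = 2 a genotype; log2 fold change 0.30 with a standard error of 0.71, edgeR adjusted p = 0.951).

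The other H4 genes were at most 2.21 CPM in the mean. Hist1h4c had 2.36, 2.63, 2.37 and 1.49 CPM and Hist1h4d 2.87, 2.12, 1.51 and 1.64 CPM in library order. Hist1h4m had 1.57, 1.21, 0.504 and 0.698 CPM in library order (log2 fold change -1.20 with a standard error of 0.70, edgeR adjusted p = 0.884). For Hist1h4d and Hist1h4m both Tex11PM/Y libraries were below both WT libraries. By the order of CPM alone, this held for 7 of the 9 tested H4 members and for 16.3% of all tested genes.

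The comparison of genotypes asks whether Tex11PM/Y SSCs differ from WT SSCs in these genes. Of the 67 members, 39 passed the filter on low counts and were tested with edgeR among 17262 genes; of the 28 not tested, 21 had fewer than 10 counts in every library, and 6 of those 21 had 0 in all. No tested member passed an adjusted p of 0.05 with edgeR (0 of 39; 0% of all tested genes), and the smallest adjusted p was 0.884. DESeq2 called 0 members (0.00579% of all genes). One member, Hist1h1b, had an unadjusted edgeR p under 0.05 on the lower side, where 1.71% of all tested genes did, and 0 on the higher side, where 0.991% did. Fitted values were below 0 for 31 of the 39 members (49% of all tested genes), with a median log2 fold change of -0.57 beside 0.01 over all tested genes. With no filter, 47 of 61 members with any count were below 0 and the median was -0.59. Medians by class were -0.51 for H1, -0.54 for H2A, -0.48 for H2B, -0.53 for H3 and -0.66 for H4.

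These fitted values rest largely on library A. Without it the median over the 39 members was -0.20, with 25 below 0; without library B it was -1.02, with 34 below 0, and 2 members then passed, Hist1h1c (log2 fold change -3.08, edgeR adjusted p = 0.0132) and Hist1h2al (edgeR adjusted p = 0.0196), beside 1.58% of all tested genes called lower. These fits leave 1 Tex11PM/Y library, whose spread is assumed to be that of the WT pair.

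**Figure D2:**
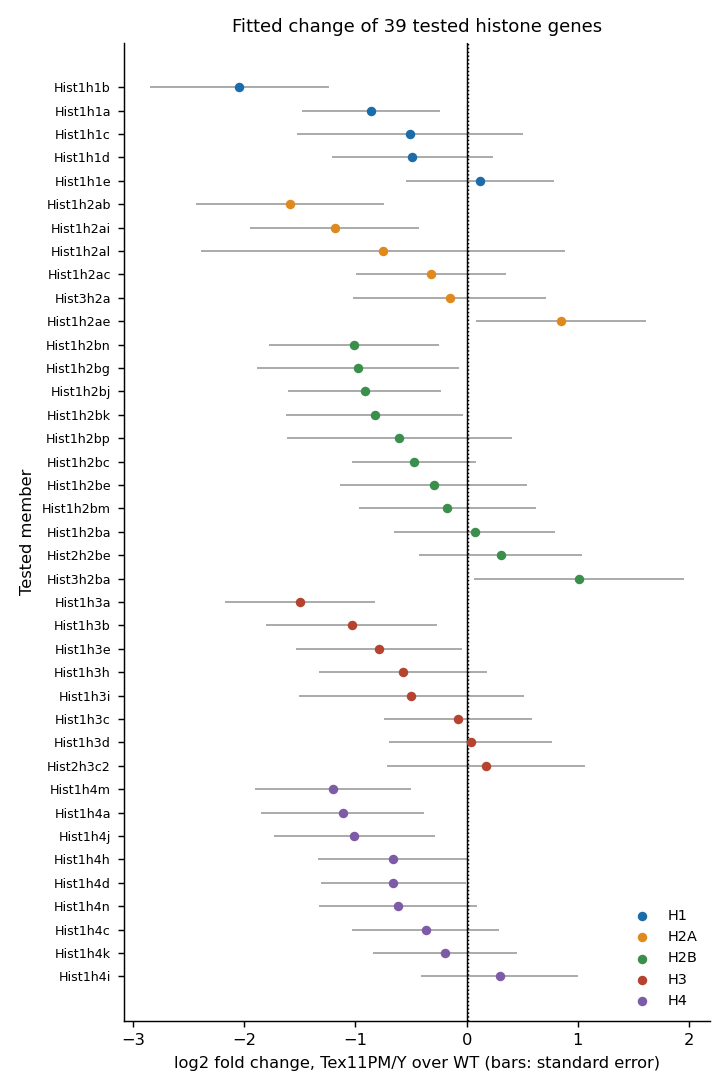
Fitted log2 fold change of Tex11PM/Y over WT for the 39 tested members, grouped by class; points are edgeR estimates from 2 libraries a genotype and bars are standard errors. The solid line is 0 and the dotted line the median of all tested genes (0.01); 31 points lie left of 0, most with bars of 0.6 to 1.0 log2 units, and none passed the adjusted threshold.

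Both Tex11PM/Y libraries were below both WT libraries for 15 of the 39 tested members (16.3% of all tested genes) and above both for 1 (16.1%). The 15 were Hist1h1a and Hist1h1b, Hist1h2ab and Hist1h2ai, Hist1h2bj and Hist1h2bn, Hist1h3a and Hist1h3b, and the H4 genes Hist1h4a, Hist1h4d, Hist1h4h, Hist1h4j, Hist1h4k, Hist1h4m and Hist1h4n. The order ignores counting error, and Hist1h4k had 37, 35, 32 and 35 counts in library order. All 15 are Hist1 cluster members with mean levels of at most 3.35 CPM. None of the 4 members with the most counts is among them. These traits hold for most of the 39 tested members as well. Apart from Hist1h1a, Hist1h1b, Hist1h2ab, Hist1h3a, Hist1h4d and Hist1h4m, they are named after their values were seen.

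Summed by class, no genotype difference could be shown. All members together had 163 ± 7.82 CPM for WT and 122 ± 94.4 CPM for Tex11PM/Y (SD, n = 2 a genotype), and the log2 ratio of the mean shares of counts was -0.37 (exact two-sided permutation p = 1). Over the 6 sums tested, all members and 5 classes, the smallest p was 0.333, for H3 (9.72 ± 0.16 and 6.78 ± 2.18 CPM), which is the smallest that 2 libraries against 2 can give, and every Benjamini-Hochberg value was 1. Without library A the log2 ratio for all members was 0.26, the opposite direction. Without the 4 members with the most counts, the remaining 63 summed to 52.1, 56.9, 31.8 and 46.5 CPM in library order, with both Tex11PM/Y libraries below both WT libraries (log2 ratio of mean shares -0.42). As shares of counts, however, WT replicate 1 (0.00487%, 95% Wilson interval 0.00457 to 0.00520) and library B (0.00472%, 0.00442 to 0.00503) overlapped within counting error, and this alternative was chosen after seeing the data.

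Library A was the lowest of the 4 libraries for 23 of the 39 tested members, or 59.0% (34.4% of all tested genes). Among the 29 members with 50 counts or more and at least 1 count in library A, the mean of the other 3 libraries was a median of 1.85-fold above library A. It was over 2-fold above for 13 members and below library A for 5. The highest values were 9.15-fold for Hist1h1c, 6.71-fold for Hist1h2bg and 3.21-fold for Hist1h2be, and the lowest was 0.638-fold for the testis gene Hist1h2ba. Fibroblast and macrophage genes were lowest in the same library (19 of 20 and 11 of 11 tested genes), and their part in the histone values was not tested.

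**Figure D3:**
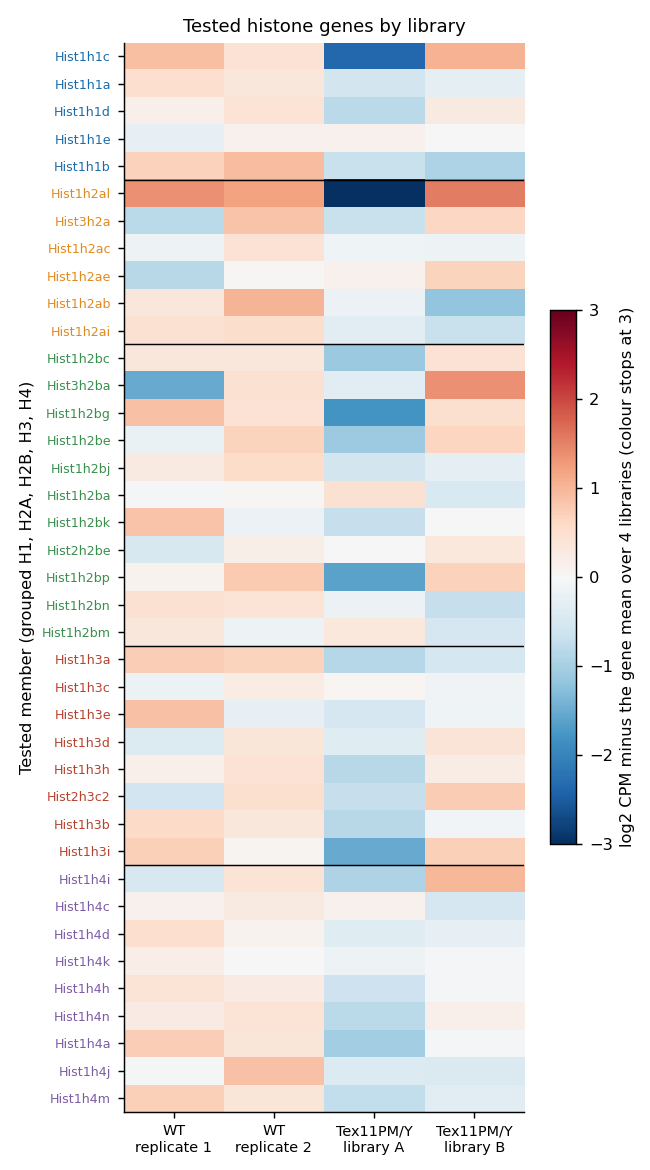
Level of each of the 39 tested members in each library, as log2 CPM minus the gene's mean over the 4 libraries, with members ordered by class and mean level. Blue is below the gene's mean and red above, and the colour stops at 3 although Hist1h2al in library A lies at -4.11; the column of library A is the bluest, and Hist3h2ba is bluest in WT replicate 1.

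Genes that lie between the members were measured as well. Of 7 tested genes that lie inside the Hist1 interval of chromosome 13 but are not histone genes, 2 were lowest in library A, against 21 of the 34 tested members there. The median centred log2 level in library A was -0.15 for these neighbours and -0.58 for the members inside the interval. It was 0.14 for the 643 tested genes of chromosome 13 that are not members, the neighbours included. The difference between neighbours and members was not tested. The 5 genes outside the family whose centred log2 CPM over the 4 libraries lay closest to the mean of the tested members (smallest summed squared distance) were 1700054O05Rik, Gm2237, Kcmf1, Evpl and Smco4. Kcmf1, for example, had 135, 155, 75.1 and 121 CPM in library order.

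The S-phase list holds genes outside the family that are known to be expressed in replicating cells. The 40 genes of the S-phase list summed to 5120, 4923, 4549 and 5014 CPM in library order, a far narrower range than that of the histone genes. None of the 40 had an edgeR p under 0.05 even unadjusted, 17 were fitted higher and 23 lower, and the median log2 fold change was -0.06. The 2 with the smallest p were Tyms, which makes thymidylate, with 15.6, 19.4, 26.6 and 27.4 CPM in library order, and Tk1, thymidine kinase, with 39.6, 32.6, 11.03 and 30.8 CPM in library order (both edgeR adjusted p = 0.884).

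The machinery that makes histone mRNA was measured too. Of 21 genes for histone gene transcription and mRNA processing none had an edgeR p under 0.05 even unadjusted, 15 were fitted higher and 6 lower, with a median of 0.11. Slbp, which codes for the stem-loop binding protein, had 106, 118, 140 and 114 CPM in library order (log2 fold change 0.18, standard error 0.29). Npat, the coactivator of these gene clusters, had 54.6, 119, 147 and 81.0 CPM in library order. The smallest p belonged to Cpsf3, the nuclease that cuts histone pre-mRNA, with 233, 263, 133 and 186 CPM, and to Pou2f1, a factor that binds ATGCAAAT, with 63.5, 87.7, 184 and 79.7 CPM in library order.

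Replacement histone genes are transcribed outside S phase as well, and most make ordinary poly(A) mRNAs. The 11 replacement histone genes summed to 1376, 1702, 1460 and 1902 CPM in library order; 8 were fitted higher and 3 lower, and none had an edgeR p under 0.05 even unadjusted. H2afy2, a macroH2A gene, had 44.4, 66.4, 127 and 69.6 CPM in library order, and H2afy had 90.4, 129, 130 and 160 CPM. Of 17 histone chaperone genes 12 were fitted higher, and none had an edgeR p under 0.05 even unadjusted. Nasp, which carries H1 and H3, had 141, 293, 434 and 238 CPM in library order, and Atrx 53.7, 94.7, 217 and 69.4 CPM. Only 3 of 13 listed germline genes outside the clusters passed the filter on low counts. This list holds histone variants and also Tnp1, Tnp2, Prm1 and Prm2, which code for transition proteins and protamines, not histones. H3f3c had 0.562, 0.405, 0.705 and 0.698 CPM and Gm12260 1.07, 0.910, 1.91 and 0.947 CPM.

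Germ-cell stage lists gave the setting of these values. Among undifferentiated markers Nanos3 had 19.3, 30.6, 61.2 and 56.6 CPM in library order (log2 fold change 1.24 with a standard error of 0.38, edgeR adjusted p = 0.884), and Zbtb16 227, 355, 608 and 489 CPM. Of the 12 genes of the undifferentiated list, Ddx4 and Dazl among them, 8 were fitted higher and 4 lower. Etv5, the one with the lowest fitted value, had 247, 82.2, 66.0 and 104 CPM (log2 fold change -0.95). Differentiating markers, which include Rhox13 (42.4, 27.3, 11.5 and 21.5 CPM) and Dnmt3b (80.8, 132, 55.6 and 93.2 CPM), summed to 602, 561, 365 and 588 CPM in library order. The sum was lowest in library A, as that of the histone genes was. Singly, 5 of the 8 were lowest there, and 2 were fitted higher and 6 lower. Dmrtb1 was highest in library A (18.9, 9.20, 20.8 and 16.7 CPM). The part of these markers in the histone values was not tested. Of 5 tested meiotic markers 2 were fitted higher and 3 lower (median log2 fold change -0.05). Sycp1 had 44.7, 95.1, 287 and 78.1 CPM and Spo11 0.393, 1.97, 4.53 and 2.74 CPM; Tex101, the most abundant of the list, had 247, 155, 160 and 173 CPM. Of 9 Sertoli markers 5 were tested; 1 was fitted higher and 4 lower, and library A was lowest for 1 of the 5. The 9 summed to 29.9, 30.3, 24.7 and 17.4 CPM in library order. Cldn11 had 3.15, 5.51, 0.604 and 1.49 CPM and Clu 17.6, 4.05, 7.81 and 2.79 CPM. Wt1 was the one fitted higher (log2 fold change 0.711 with a standard error of 0.799) and was highest in library A. The smallest p among fibroblast genes was that of Fstl1 (428, 226, 90.5 and 201 CPM) and then Fn1 (3108, 1103, 248 and 1121 CPM), and among macrophage genes Fcer1g (9.27, 4.55, 0.403 and 5.08 CPM) and Csf1r (11.2, 7.89, 0.755 and 11.6 CPM). No gene of these lists passed the edgeR threshold after adjustment; unadjusted, 2 undifferentiated markers were under 0.05 on the higher side and 1 fibroblast and 1 Sertoli gene on the lower.

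How a gene's annotated model ends bears on what was counted for it. Models of 22 members run more than 100 bases past the stem-loop, 20 end within 100 bases of it and 25 gave no match to the form sought. Of the 22 protein-coding members among these 25, 15 end within 10 bases of the stop codon. Others have longer ends, such as Hist1h4a and Hist1h3g with 154 and 95 bases after it. A stem-loop of another form would have been missed there. The first group held 64.9% of all member counts, the second 8.53% and the third 26.6%. Per length, however, the groups were alike in the middle: the median of the mean FPKM was 0.691, 0.694 and 0.650. What set the first group apart was its top, with Hist1h1c and Hist1h4i. Hist1h2bc, whose model is spliced and gave no match to the stem-loop form sought, led the third. Summed counts were 1916, 1944, 574 and 2704 in library order for the first group, 280, 306, 145 and 207 for the second and 811, 872, 370 and 870 for the third, ranges of 4.71-fold, 2.11-fold and 2.36-fold. Fitted values were below 0 for 10 of 16 tested members of the first group, 11 of 11 of the second and 10 of 12 of the third, with medians of -0.31, -0.83 and -0.66; the difference between the groups was not tested, and the limit of 100 bases was chosen after the model lengths were seen.

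**Figure D4:**
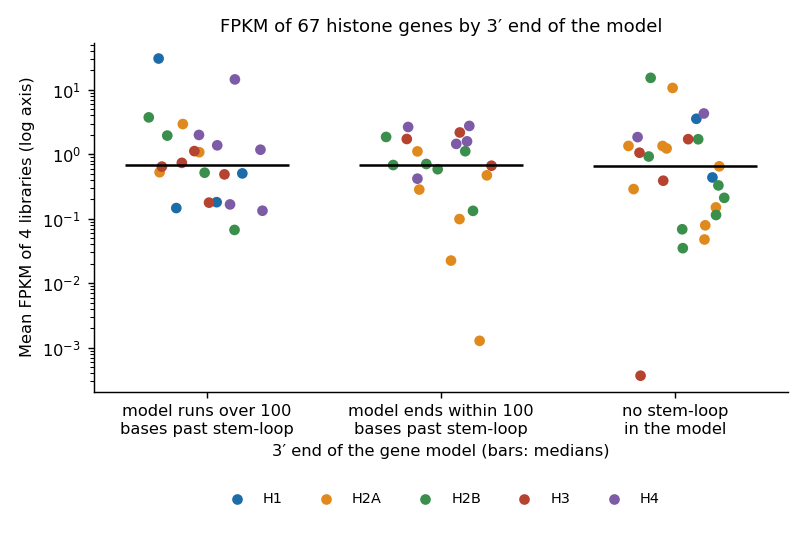
Mean FPKM over the 4 libraries (log axis) of each of the 67 members, by how its GENCODE M21 model ends relative to the histone stem-loop; each point is a gene, coloured by class, and black bars are medians. The third group gave no match to the stem-loop form sought. The medians lie between 0.650 and 0.694 in all 3 groups. The highest points are Hist1h1c and Hist1h4i in the first group and Hist1h2bc and Hist1h2al in the third.

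Copies of these genes resemble each other, which limits the counts of single members. Of the 67 members, 33 share more than 50% of their 50-base windows with another annotated transcript and 4 share none. Hist1h1c shares 8.54%, and Hist1h2bc 30.6%. The median share is 39.5% in the H4 class, 62.0% in H3 and 67.3% in H2A. The 6 members with 0 counts in all libraries (Hist2h2aa1, Hist2h2ab, Hist2h2ac, Hist2h2bb, Hist2h3b and Hist2h3c1) share from 55.0% to 100% of their windows, and each has an FPKM above 0 in some library. All 6 also overlap exons of another annotated gene. For all but Hist2h2ac such a gene shares the most windows, so these can be the same DNA annotated in 2 genes. The 2 tables treat reads of such members differently, and the parts of copies and of overlaps were not tested. Values of members with high shares are uncertain for these reasons.

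H2A genes carry a further overlap. All 18 H2A members overlap the exons of another annotated gene, against 6 members of the other classes together; for 15 of the 18 a partner is a predicted gene of 129 to 144 bases whose symbol begins with Gm44, and these 15 short genes have 2 counts in all. The sources used here do not say how the authors' counting treated reads that fall on a pair of genes. The ratio of counts scaled by length and library total, in FPKM units, to the authors' FPKM had a median of 0.963 over the 11 H2A members with 10 counts or more. It was 1.30 for H1, 1.26 for H2B, 1.28 for H3 and 1.29 for H4, and 1.22 over 22274 genes. Of the 11 H2A members, 10 had ratios below the lowest of the 42 members of other classes that also had 10 counts or more (1.14). Hist3h2a was lowest at 0.232. The limit of 10 counts leaves out members of other classes with few counts for their FPKM. Hist1h4b, an H4 gene that overlaps 4930558J22Rik, had 2, 4, 0 and 0 counts at 1.30, 2.39, 1.08 and 1.04 FPKM in library order. Hist2h3c1, an H3 gene, had 0 counts at a mean of 0.737 FPKM. The part of the overlaps in these ratios was not tested. For members with 10 counts or more, H2A levels from counts and from FPKM are not on one footing with those of the other classes.

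The promoters of the classes differ in the short motifs they hold. RefSeq windows from 250 bases before to 50 after the start (GRCm38.p6) were matched to 59 members. Only the first listed window of a member was used. CCAAT, the site of NF-Y, searched on both strands, occurs in all 47 windows of H1, H2A, H2B and H3 genes and in 3 of 12 H4 windows, beside 37.9% of 27025 promoters of the same length. TATAAA occurs in 35 of 59 (14.2% of all). ATGCAAAT, the octamer bound by POU factors, occurs in 7 of 16 H2A and 6 of 15 H2B windows and in none of the H1, H3 and H4 windows (1.75% of all). A further window of Hist1h2be (chr13:23585921-23586220), not used here, holds 1 octamer. All 3 motifs were searched on both strands. Windows of neighbouring H2A and H2B genes can cover the same bases, as those of Hist1h2ai and Hist1h2bl do. A single site can then count for both genes, so these windows are not all separate promoters. None of the 3 motifs contains another, and a match describes letters, not binding.

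The octamer also sits in different places in the paired classes. In the windows used, its nearest copy lay a median of 129 bases before the start in H2A genes and 53.5 bases before it in H2B genes. Where windows overlap, the same copy can count in both classes. The nearest CCAAT lay a median of 65.5 bases before the start over the 48 members with a CCAAT upstream. Of the windows printed below, that of Hist3h2ba holds no octamer, so its position in H2B genes cannot be seen there. The 150 bases before the RefSeq start of the most abundant matched member of each class follow, with these motifs in capitals on either strand. They are Hist1h1c (chr13:23738657-23738806, plus strand), Hist3h2a (chr11:58954535-58954684, plus), Hist3h2ba (chr11:58948761-58948910, plus), Hist1h3c (chr13:23745522-23745671, minus) and Hist1h4i (chr13:22041363-22041512, minus); Hist1h2al, Hist1h2bc and Hist1h3a were not in the table.
Hist1h1c: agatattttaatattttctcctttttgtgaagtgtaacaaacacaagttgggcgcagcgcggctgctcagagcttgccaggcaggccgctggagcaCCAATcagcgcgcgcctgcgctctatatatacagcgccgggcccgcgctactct
Hist3h2a: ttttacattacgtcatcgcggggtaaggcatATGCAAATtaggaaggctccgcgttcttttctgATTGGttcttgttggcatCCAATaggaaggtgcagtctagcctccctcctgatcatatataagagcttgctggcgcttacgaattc
Hist3h2ba: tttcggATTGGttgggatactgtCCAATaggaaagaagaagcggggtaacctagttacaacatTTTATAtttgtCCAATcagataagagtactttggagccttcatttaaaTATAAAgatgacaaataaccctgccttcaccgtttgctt
Hist1h3c: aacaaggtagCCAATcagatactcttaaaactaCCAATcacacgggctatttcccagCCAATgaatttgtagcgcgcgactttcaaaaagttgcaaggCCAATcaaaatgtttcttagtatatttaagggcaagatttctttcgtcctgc
Hist1h4i: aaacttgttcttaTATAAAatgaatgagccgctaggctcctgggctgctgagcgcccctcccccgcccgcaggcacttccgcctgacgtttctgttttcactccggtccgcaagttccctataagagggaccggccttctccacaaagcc

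Many H2A and H2B genes stand head to head and share the DNA between their starts. There were 13 such pairs, with gaps of 172 to 305 bases. Per length the H2B gene was the higher in 9 pairs and the H2A gene in 4, and the partners differed by over 2-fold in 9 of the 13; by counts, which are not scaled by length, the H2B gene had more in 10. These tallies include 2 pairs with a pseudogene (Hist1h2aj and Hist3h2bb-ps) and others with few counts. In the 7 pairs with 10 counts or more for both partners, the H2B gene was higher per length in 5 and had more counts in 6, and 3 differed by over 2-fold per length. H2A values per length are subject to the difference between the tables given above. Across a gap of 175 bases Hist1h2ae and Hist1h2bg had 58 and 122 counts in all and FPKM values 1.81-fold apart. In the pair of testis genes Hist1h2aa and Hist1h2ba had 35 and 74 counts and 1.23 and 1.71 FPKM. Hist1h2ac and Hist1h2bc, across a gap of 250 bases, had 105 and 1669 counts, a 29.1-fold difference per length, so a shared gap did not go with equal levels of poly(A) RNA in that pair.

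**Figure D5:**
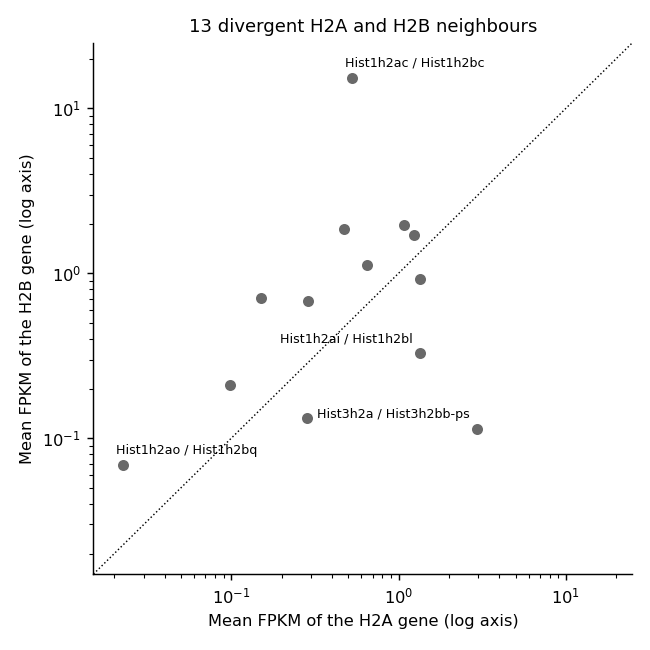
Mean FPKM over 4 libraries (both axes log) of the H2A and the H2B gene of each of 13 divergent pairs; each point is a pair and the dotted line marks equal values. Hist1h2ac and Hist1h2bc lie farthest above the line, at 0.527 and 15.3 FPKM, and Hist3h2a and Hist3h2bb-ps farthest below it, at 2.94 and 0.114 FPKM.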

How the data were processed

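Poly(A) RNA of sorted SSCs was sequenced in 4 libraries, 2 of each genotype, and the kit is not described as stranded. Per the submitters' processing notes, the tools were STAR, fastp, StringTie, featureCounts and DESeq2, with the mm10 build; roles and versions are not given in the sources used here. Whole-number read counts, not normalised, were deposited by the authors, in a table with the columns of featureCounts. FPKM values and TPM values, so named by the deposited tables, were also computed by the authors.

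Counts were fitted with edgeR 4.0.16 in R 4.3.3 (TMM scaling, the filterByExpr minimum, robust quasi-likelihood tests on genotype) with Benjamini-Hochberg adjustment over 17262 genes and a threshold of 0.05; log2 CPM used a prior count of 2. Sums were compared as shares of counts by exact two-sided permutation in scipy 1.17.1. Alternatives were DESeq2 1.42.0, limma 3.58.1 on log2 FPKM or TPM, other scalings and filters, and each library left out. Both Tex11PM/Y columns share a name, so no pairing was used. No 2 libraries were repeats within sampling noise (chi-square per degree of freedom of 18.6 or more). Transcript models came from GENCODE M21, whose lengths equal the deposited ones for 65 of 67 members, and promoters from RefSeq, matched through synonyms and positions. Of gene identifiers, 98.6% matched the reference names; 135 had no symbol. A further 3 histone-named genes, with 0 counts, are in the count table only and are not members.

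Members and lists were chosen with earlier results of these data known. Named members were the 3 of each class with the highest mean CPM, those past the threshold, the 4 tested with the largest log2 fold change in each direction, and 3 testis genes; in each list the 2 genes with the smallest p were named. Slbp, Npat and other members named beyond this rule, and limits of 10 or 50 counts, were chosen after values were seen.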

Additional observations from a re-analysis of the deposited data

How the results depend on the processing

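The count of members past the threshold was 0 under edgeR scaled by DESeq2 size factors or by library size, fitted without a filter (61 members) or with a minimum of 1 CPM in 2 libraries (24), under DESeq2, and under limma on log2(FPKM + 1), log2(FPKM + 0.1) and log2(TPM + 1); leaving out each library gave 0 to 2, the 2 without Tex11PM/Y library B. The median log2 fold change of tested members was -0.57; it was -0.17 with limma on log2(FPKM + 1) and -0.21 on log2(TPM + 1), where the added 1 shrinks changes of low genes and 58 and 60 members were fitted, and ranged from -1.02 to -0.20 over left-out libraries. The log2 ratio of summed shares, -0.37, was -0.29 for FPKM and for TPM and -0.31 without Hist1h1c, and ranged from -1.50 to 0.26 over left-out libraries; the reversal came without library A, which leaves library B alone, and this value has no test. Of 21 named members tested, 11 kept their direction in every fit. Hist1h3c (-0.08) was 0.042, 0.066 and 0.15 in the limma fits on log2(FPKM + 1), log2(FPKM + 0.1) and log2(TPM + 1). Over left-out libraries the log2 fold change ranged from -3.08 to 0.36 for Hist1h1c, from -1.03 to 1.02 for Hist3h2a, from -0.60 to 0.027 for Hist1h2ac, from -9.35 (library A alone, at 0 counts, so that the value depends on the prior count) to 0.25 for Hist1h2al, from -0.14 to 2.42 for Hist3h2ba, from -1.48 to 0.11 for Hist1h2bc, from -0.52 to 0.48 for Hist1h2ba, from -0.021 to 0.73 for Hist2h2be, from -0.28 to 0.16 for Hist1h3c and from -0.99 to 0.96 for Hist1h4i. The cause of these reversals was not tested. No paired analysis was possible because both Tex11PM/Y columns carry the same replicate number. For the 21 of 67 members with fewer than 10 counts in each library no genotype difference could be tested at this depth; the 6 of them at 0 counts are not at 0 FPKM in every library.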
